A study of Mus musculus with 9 samples.

Results

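The binding sites described here are the E2A peaks called in CD73+ gamma-delta T cell precursors and in the cultured DN3 cells they came from. They are 2 peak lists from chromatin immunoprecipitation and sequencing. A DN3 peak was counted as kept if it shared at least 1 bp with a CD73+ peak and as not called again otherwise, and a CD73+ peak without a DN3 peak was counted as new. On chromosomes 1 to 19, X and Y the CD73+ list held 23205 peaks and the DN3 list 12357, together 35562 of the 79216 peaks in the 6 lists of the series. Of the DN3 peaks 1145 were kept (9.27%, 95% Wilson interval 8.77% to 9.79%) and 11212 were not called again (90.7%). Of the CD73+ peaks 1337 lay over a DN3 peak (5.76%) and 21868 were new (94.2%). The kept sites included peaks with high DN3 scores at Ccnd3, Btg2, Notch3, Sox4 and Tcf7. That at Notch3 scored 78.2 in the CD73+ list and was not kept when both lists had to score at least 100. Those not called again included peaks at Dntt, Rag1, Ptcra, Lat and Bcl2l1.

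E2A, the product of Tcf3, and its relative HEB, the product of Tcf12, are E proteins, basic helix-loop-helix factors that pair with each other or with themselves and recognise the E-box, CANNTG. Id proteins pair with E proteins and keep them off DNA. In the thymus E proteins act at the DN3 stage, where receptor gene rearrangement takes place and pre-TCR or gamma-delta TCR signals decide how a cell goes on. A strong gamma-delta TCR signal acts through ERK, Egr factors and Id3, and CD73, the surface enzyme encoded by Nt5e, marks cells that have committed to the gamma-delta fate.

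CD73+ cells were obtained by giving Rag2-/- DN3 cells the KN6 gamma-delta TCR from a vector that also marks cells with YFP, growing them for 3 days with OP9-DL1 stroma, which displays a Notch ligand, and sorting for Thy1+ YFP+ CD4- CD8- CD24+ CD73+. CD73- cells were the CD73- fraction of the same cultures, and DN3 cells (Thy1.2+ CD4- CD8- CD25+ CD44-) were grown from fetal liver progenitors on OP9-DL1 and harvested at day 7. The antibodies were rabbit sera to the C-terminus of E2A or of HEB. All cells were of BALB/c origin and Rag2-deficient, so their own receptor genes were not rearranged and 1 TCR stands for all gamma-delta receptors. No DN3 cells carrying an empty vector or kept for the same added days are among the groups, so receptor, transduction and time in culture cannot be told apart. The authors concatenated duplicates into a single file, so each group has 1 list, no value has a replicate error, and no p-value is given. Peak lists hold no expression, and the labelled cell types can only be set beside the peaks at their marker genes. Among these, Thy1 (576 in DN3), Il2ra (92.3), Ptcra (112), Cd3e (96.8) and Cd3d had DN3 peaks and no CD73+ peak. Cd3g, Nt5e and Notch1 had peaks in both lists, without overlap at Notch1.

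The deposited score is -10 log10 p as MACS gave it to the authors. It is at least 50 in these files, many high peaks are tied at 3100, and its order holds inside 1 list alone, so CD73+ and DN3 scores given side by side are not to be read as levels. A peak of 100 or more is called strong here. The absence of a called peak does not show the absence of the factor, and read depth is not given in the sources used here. The CD73+ peaks were narrower, with median widths of 175 bp against 617 bp in DN3 cells, and 7.02% of CD73+ peaks were strong against 40.6% of DN3 peaks. The CD73+ list labelled HEB overlapped 27.9% of DN3 E2A peaks, more than the CD73+ list labelled E2A, and every count below rests on the E2A label as deposited.

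Sequences were available for promoters only, and few of the peaks lay there. Shown are 5 promoters from the highest peaks over promoters of each class and that of Lat, a TCR signalling gene. Each is given as the 250 bases before the start site (RefSeq, GRCm38.p6, which has mm10 coordinates). They are written 5′ to 3′ on the strand of the gene, with each CANNTG in capitals. Arpp21, which encodes an RNA-binding protein of thymocytes (chr9:112217262-112217511, minus strand), and Dpcd, a gene linked to cilia (chr19:45560335-45560584, plus strand), lay under kept peaks. Prkcb, the gene of protein kinase C beta (chr7:122288875-122289124, plus strand), and Lat, the adaptor that carries the TCR signal to its downstream enzymes (chr7:126369569-126369818, minus strand), lay under DN3 peaks not called again. Vps29, a part of the retromer complex that sorts endosomal cargo (chr5:122354078-122354327, plus strand), and Bivm (chr1:44119718-44119967, plus strand) lay under new CD73+ peaks.
Arpp21: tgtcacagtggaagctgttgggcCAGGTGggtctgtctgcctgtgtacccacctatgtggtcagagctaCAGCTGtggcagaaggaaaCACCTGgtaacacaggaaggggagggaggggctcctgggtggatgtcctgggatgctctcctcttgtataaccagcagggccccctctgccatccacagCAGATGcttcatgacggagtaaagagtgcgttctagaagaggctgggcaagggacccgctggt
Dpcd: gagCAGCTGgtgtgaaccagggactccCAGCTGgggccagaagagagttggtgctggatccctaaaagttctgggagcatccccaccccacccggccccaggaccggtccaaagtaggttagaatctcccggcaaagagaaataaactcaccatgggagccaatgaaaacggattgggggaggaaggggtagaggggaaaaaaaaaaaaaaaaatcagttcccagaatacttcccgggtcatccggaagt
Prkcb: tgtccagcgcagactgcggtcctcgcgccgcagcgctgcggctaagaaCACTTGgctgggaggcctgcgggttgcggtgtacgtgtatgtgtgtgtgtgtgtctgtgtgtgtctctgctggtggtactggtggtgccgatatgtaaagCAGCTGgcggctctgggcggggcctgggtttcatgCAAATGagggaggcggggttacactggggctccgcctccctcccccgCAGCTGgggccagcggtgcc
Lat: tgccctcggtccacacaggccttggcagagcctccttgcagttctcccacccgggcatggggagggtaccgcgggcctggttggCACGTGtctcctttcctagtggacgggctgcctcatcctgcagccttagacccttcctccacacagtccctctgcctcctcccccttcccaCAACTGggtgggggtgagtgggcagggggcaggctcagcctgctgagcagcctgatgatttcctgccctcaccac
Vps29: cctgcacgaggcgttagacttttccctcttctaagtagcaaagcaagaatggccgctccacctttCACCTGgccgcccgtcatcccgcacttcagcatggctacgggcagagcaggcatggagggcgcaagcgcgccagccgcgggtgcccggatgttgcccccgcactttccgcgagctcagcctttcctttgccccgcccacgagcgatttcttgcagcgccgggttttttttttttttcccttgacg
Bivm: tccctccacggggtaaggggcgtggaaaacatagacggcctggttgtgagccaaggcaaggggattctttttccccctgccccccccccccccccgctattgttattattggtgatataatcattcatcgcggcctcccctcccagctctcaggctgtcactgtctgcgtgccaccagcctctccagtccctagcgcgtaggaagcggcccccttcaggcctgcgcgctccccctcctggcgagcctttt

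The Arpp21 stretch holds 4 E-boxes, 1 of them CAGCTG. It lay wholly inside a DN3 peak of 2029 at chr9:112216697-112218117, and the CD73+ peak of 108 at chr9:112217322-112217533 covered most of it but not the bases next to the start site. Dpcd, with 2 CAGCTG boxes, lay inside a DN3 peak of 2902. The peaks over both promoters overlapped a peak in each of the other 4 lists, which are the E2A and HEB lists of CD73- cells and the HEB lists of CD73+ and DN3 cells. Of the promoters shown, those under peaks not called again held as many boxes. The examples do not stand for their classes. Other promoters under high peaks, Dnlz and Wfs1 (not called again) and Pik3r5 (kept), held 1 each. Prkcb had 4, and Lat had 2, under DN3 peaks of 737 and 627 that also overlapped a peak in each of the other 4 lists. The new peaks were far narrower. That at Vps29, which it shares with the neighbouring gene Rad9b, scored 121 and covered 44 of the bases shown, which do not include its 1 E-box. That at Bivm scored 94.9 and covered 83 of the bases shown, and the stretch holds no E-box. Neither overlapped a peak of the other 4 lists.

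Over all promoter windows, from 250 bases before to 50 after the start and counted as under a peak from 1 covered base, an E-box (CANNTG, a motif that reads the same on both strands) was found in 82.6% of the 46 windows under new CD73+ peaks, in 76.7% of the 90 under kept DN3 peaks and in 83.4% of the 643 under DN3 peaks not called again. The share of all 32851 windows that hold CANNTG was 72.3%. CAGCTG, a form that E proteins bind, stood in 28.3% of the windows under new peaks, 27.8% of those under kept peaks and 31.1% of those under peaks not called again, against 16.3% of all windows. CAGGTG or its reverse complement CACCTG stood in 32.6%, 34.4% and 39.2% of them in the same order, against 20.2% of all windows, and CATCTG or CAGATG in 19.6%, 24.4% and 18.8%, against 17.2%. These forms all fall within CANNTG. For CAGCTG the interval of the kept windows was 19.6% to 37.8% and that of the windows not called again was 27.6% to 34.8%, so these intervals overlap. The 90 kept windows came from 68 peaks and include copies of the same sequence, as at Gm40364 and Gm40369. The intervals count each window as separate. A match in these letters is not a measured site, and it can lie in a part of the window that a peak does not cover. Only 9 windows had 150 or more bases under a new peak. The windows cover 79.9% of protein-coding genes, and none of chromosome 18 was used.

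Few peaks of any class lay at promoters. Windows were covered by 43 new peaks (0.197%), by 42 of the CD73+ peaks that lay over a DN3 peak (3.14%), by 68 kept DN3 peaks (5.94%) and by 554 DN3 peaks not called again (4.94%). Within the CD73+ list the intervals of these shares did not meet (2.33% to 4.22% for peaks over a DN3 peak and 0.146% to 0.265% for new peaks), at median widths of 190 bp and 175 bp. New peaks lay in the span of a protein-coding gene in 26.2% of cases and over 100 kb from one in 36.5%. CD73+ peaks over a DN3 peak lay in a span in 39.9% and over 100 kb away in 21.6%, kept DN3 peaks in 40.4% and 22.1%, and DN3 peaks not called again in 52.2% and 11.6%. Kept DN3 sites were more often far from genes than those not called again, also among strong peaks, of which 18.4% of 760 kept and 8.59% of 4251 not called again lay over 100 kb away.

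**Figure D1:**
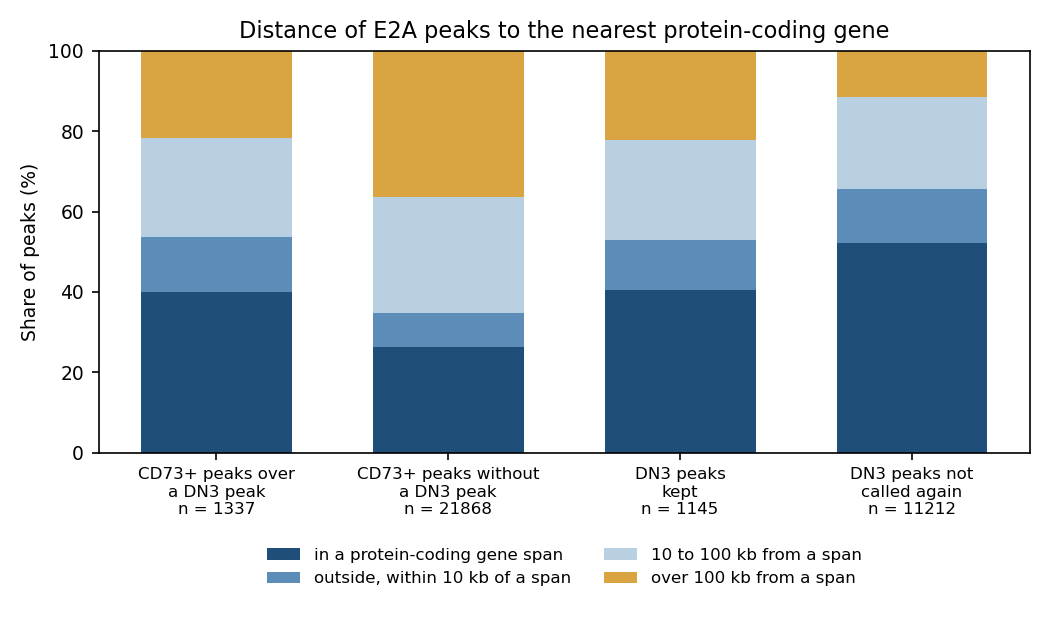
Share of E2A peaks (vertical axis, %) by distance to the nearest protein-coding gene span, for CD73+ peaks over a DN3 peak, CD73+ peaks without one, kept DN3 peaks and DN3 peaks not called again, with the number of peaks under each bar. Peaks over 100 kb from a gene make up 36.5% of the new CD73+ peaks and 11.6% of the DN3 peaks not called again.

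Whether a DN3 site was met again went with its DN3 score. From 5.67% of the 3208 peaks scoring 50 to 60, the kept share reached 14.5% at 200 to 500, 30.7% at 500 to 1000 and 61.2% of the 289 peaks at 1000 or more (55.5% to 66.7%). Kept DN3 peaks had a median score of 194 and a median width of 729 bp, against 78.8 and 610 bp for those not called again. Wider peaks have more room for an overlap. In the other direction, 3.04% of CD73+ peaks scoring 50 to 60 lay over a DN3 peak, as did 78.0% of the 227 scoring 200 to 500 and 92.6% of the 68 scoring 500 or more. Over the 1145 kept peaks, the DN3 score and the highest score of an overlapping CD73+ peak had a Spearman rho of 0.342. This describes peaks at shared genome positions, which may also share local background. DN3 and CD73+ cells each had an input library of their own. Of the CD73+ peaks over a DN3 peak, 1217 lay wholly inside it, and 119 kept DN3 peaks held 2 or more CD73+ peaks. At the edge of the rule, the narrowest overlap was 2 bp in Slc15a5 (DN3 score 59.8) and the narrowest gap was 2 bp at a DN3 peak of 53.4 whose nearest gene was Tlr4.

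**Figure D2:**
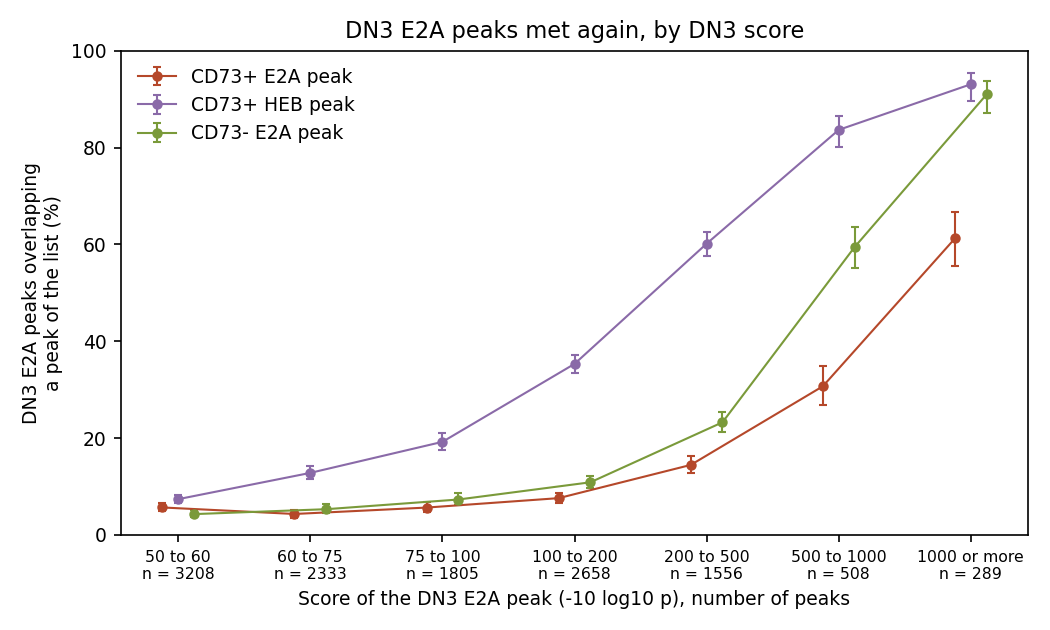
Share of DN3 E2A peaks (vertical axis, %) that overlapped a peak of the CD73+ E2A, CD73+ HEB or CD73- E2A list, by the score of the DN3 peak (horizontal axis, with the number of peaks). Points are shares and bars are 95% Wilson intervals, which cover counting error only. At 1000 or more the shares were 61.2% (CD73+ E2A), 93.1% (CD73+ HEB) and 91.0% (CD73- E2A).

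Most DN3 sites not called again lay well away from any CD73+ peak. Their median gap to the nearest CD73+ peak was 56582 bp, and 1.72% had one within 500 bp. The 3 classes differed in how they met the other lists, a readout that the classes do not use. Of new peaks 5.02% overlapped a CD73- E2A peak, 2.70% a CD73+ HEB peak and 11.7% any of the other 4 lists. Of kept DN3 peaks 67.4% overlapped a CD73- E2A peak, 75.5% a CD73+ HEB peak and 88.4% any other list, and 53.1% were in all of them. Of DN3 peaks not called again 7.47% overlapped a CD73- E2A peak, 23.1% a CD73+ HEB peak and 48.9% any other list. Kept peaks also had higher DN3 scores. Among strong DN3 peaks, 99.1% of those kept and 81.4% of those not called again overlapped any other list. For the CD73- E2A list these shares were 80.3% and 14.3%. Strong DN3 peaks not called again were in the DN3 HEB list in 74.7% of cases and in the CD73+ HEB list in 43.5%, so a peak was still called at many of these sites in CD73+ cells with the other antibody. Of the 112 peaks of this class scoring at least 1000, 72 had a peak in each of the other 4 lists and were without one in the CD73+ E2A list alone.

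**Figure D3:**
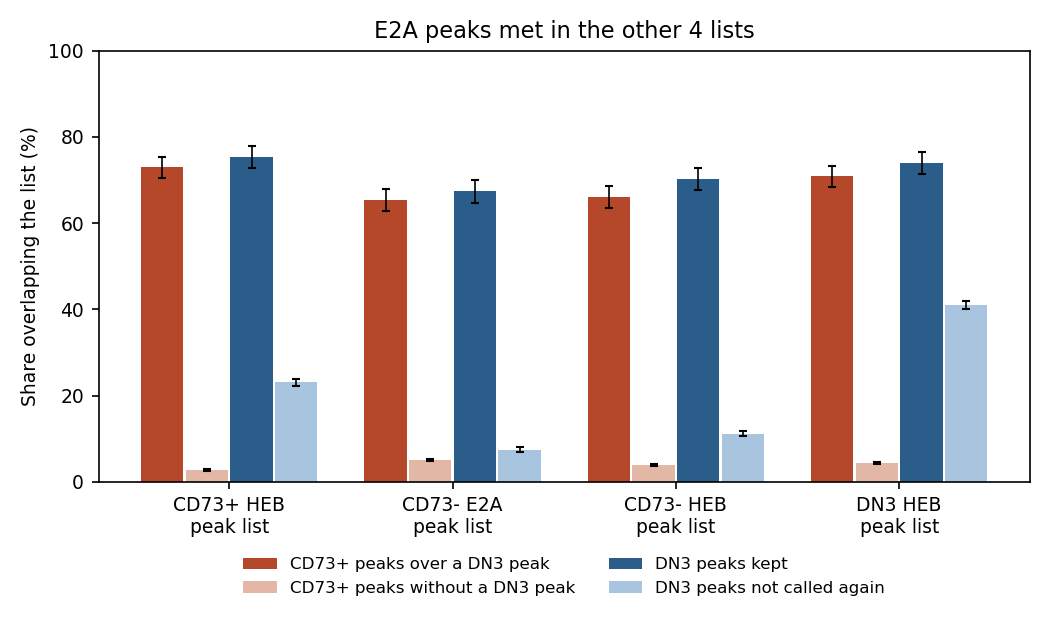
Share of peaks (vertical axis, %) of each class that overlapped a peak of the CD73+ HEB, CD73- E2A, CD73- HEB or DN3 HEB list. Bars are shares and error bars 95% Wilson intervals (counting error only). New CD73+ peaks stayed at 5.02% or less in each list, and kept DN3 peaks lay between 67.4% and 75.5%.

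The sites with the highest scores show both outcomes. Among kept DN3 peaks the highest lay 3121 bp from Trim80, a member of the TRIM family, with 285 in the CD73+ list and 3216 in the DN3 list. Btg2, an antiproliferative gene, had 504 in CD73+ and 3100 in DN3 cells, on chromosome 1 at 134066873 to 134068027, 6838 bp outside the gene. Pag1, the gene of an adaptor that recruits Csk to the membrane, had 641 in CD73+ and 3100 in DN3 cells. Cbfa2t3, a corepressor of the ETO family that works with E proteins, had 195 in CD73+ and 3100 in DN3 cells, 767 bp from the gene. Ndufaf6, a gene for assembly of mitochondrial complex I, had 351 in CD73+ and 3100 in DN3 cells. Each of these 5 sites also overlapped a peak in the other 4 lists.

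DN3 peaks not called again reached the same DN3 scores. Nfix, a nuclear factor I gene, held a DN3 peak of 3100 and Mcm2, a subunit of the replicative helicase, a DN3 peak of 3087 on chromosome 6 at 88886039 to 88887640, and neither gene had a CD73+ peak. Cd200, an inhibitory ligand of immune cells, had a DN3 peak of 2450 at 44853 bp from the gene, Tnk2, a tyrosine kinase gene, had 2396 and Ksr1, a scaffold of the ERK cascade, had 2310, again with no CD73+ peak. Tpt1 (2657) and Mcf2l (2482) had no kept peak and 2 CD73+ peaks elsewhere. All of the 10 highest peaks of this class overlapped a peak in each of the other 4 lists. The highest that no other list held were in Lypd6 (457), Fndc3b (418) and Morc3 (385).

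New CD73+ peaks reached a score of 785 in their own list. Among the 10 highest, 2 lay over 100 kb from a gene. The highest of the rest were in Cartpt, the gene of a neuropeptide (785), Ppargc1a, a coactivator of mitochondrial genes (670), and Ano2, a chloride channel gene (534), with Ccn1, an extracellular matrix gene, at 492 and Myo7a, a myosin gene, at 453. The Ano2, Ccn1 and Myo7a peaks were 92, 90 and 148 bp wide and overlapped the CD73- E2A and CD73- HEB lists but not the CD73+ HEB list, and those of Cartpt and Ppargc1a overlapped neither CD73- list nor the CD73+ HEB list. In DN3 cells the HEB list had a peak at Ppargc1a, Ano2, Ccn1 and Myo7a and at 9 of the 10 highest new peaks, with Cartpt as the exception. Of all new peaks 57.3% had a score shared with at least 10 others in the class, against 6.48% of DN3 peaks not called again. Among the 1114 strong new peaks, 209 had the same score of 129, with a median width of 68 bp, and 3.35% of those overlapped any other list, against 28.7% of the strong new peaks together. The part of these repeated scores in the number of new peaks was not tested.

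The kept class was also ranked by CD73+ score. Of 24 CD73+ peaks over a DN3 peak that scored at least 1000, 20 were in all of the other 4 lists and 9 lay over 100 kb from a gene. Of all CD73+ peaks over a DN3 peak 48.5% were in all of these lists. Over 100 kb from a gene lay 21.6% of the CD73+ peaks over a DN3 peak and 35.6% of all CD73+ peaks. On chromosome 2 there were 4 of the 24, among them a peak of 3100 at 98662210 to 98663011. No peaks were removed by a list of known high-background regions. Without peaks over 100 kb from a gene, an alternative added after the data were seen, 8.25% of DN3 peaks were kept.

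At the level of genes, each peak was given to the nearest of 21887 protein-coding genes. A gene is called kept if at least 1 of its DN3 peaks was kept, shifted if none was but another CD73+ peak was called, lost if it had DN3 peaks and no CD73+ peak, and new only if it had CD73+ peaks alone. In CD73+ cells 7235 genes had a peak (33.1%), and in DN3 cells 6227 (28.5%). Kept genes numbered 958 (4.38%), shifted genes 2319 (10.6%), lost genes 2950 (13.5%) and new only genes 3960 (18.1%), and 11700 (53.5%) had no peak. Of the genes with a DN3 peak, 15.4% were kept, 37.2% shifted and 47.4% lost. The class of a gene follows how many peaks and bases it has. Of genes with 1 DN3 peak 9.47% were kept and 54.1% lost, whereas of those with 10 or more 62.9% were kept and 14.5% lost, and the median span was 65228 bp for shifted genes, 48547 bp for kept, 26590 bp for lost and 23981 bp for new only genes. With the CD73+ HEB list in place of E2A, 2390 of the 6227 genes with a DN3 peak were kept and 2742 lost, which is 10.9% and 12.5% of all genes. With both E2A lists at a score of at least 100, 367 genes (1.68%) were kept and 2520 (11.5%) lost. The counts of gene lists below are to be read against these shares and describe the lists, with no test. Many of the lists have a DN3 peak at more of their genes than the 28.5% of all genes. For these, the shares among genes with a DN3 peak are the closer comparison.

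**Figure D4:**
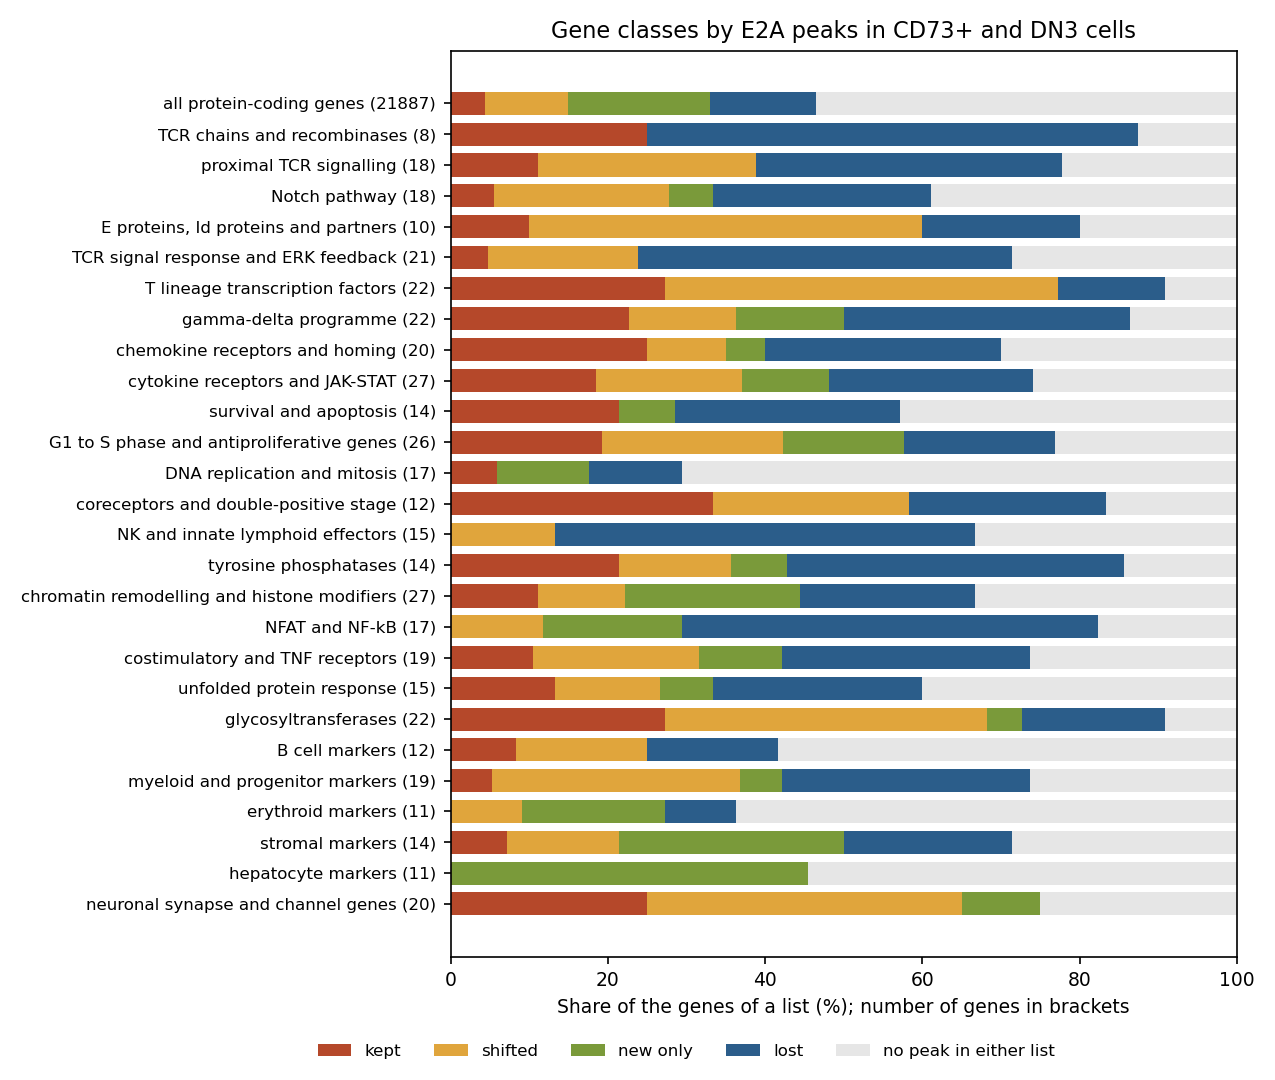
Share of genes (horizontal axis, %) of each class in 26 gene lists and in all protein-coding genes (top bar), with the number of genes in brackets. Colours give kept, shifted, new only and lost genes and genes without a peak in either list. T lineage transcription factors have 27.3% kept and 13.6% lost genes, and NFAT and NF-kB genes none kept and 52.9% lost. These lists differ in DN3 peaks, 113 and 34 in the same order. With both E2A lists at a score of at least 100 the T lineage list has 1 kept and 13 lost genes. Of all protein-coding genes 4.38% are kept and 13.5% lost. Neuronal synapse and channel genes have 25% kept and 0 lost. Hepatocyte markers have new only peaks (45.5%) and none of DN3.

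Of 8 genes of TCR chains, CD3 and the recombination machinery, 2 were kept and 5 lost, and with the CD73+ HEB list 4 were kept and 2 lost. Cd3g kept its DN3 peak of 156 with a CD73+ peak of 54.5, and Cd247, the zeta chain, kept 1 of 6 DN3 peaks. Dntt, the terminal transferase that adds bases at receptor joints, had 3 DN3 peaks of up to 861, 6355 bp from the gene, and no CD73+ peak. Rag1 (552), Ptcra, the pre-TCR alpha chain (112), Cd3e (96.8) and Cd3d (72.1) had DN3 peaks and no CD73+ peak. The Rag1 and Dntt peaks differed in the other lists, since that of Rag1 overlapped a CD73+ HEB peak and that of Dntt a CD73- E2A peak. The constant gene segments are not protein-coding in the annotation and were read apart. Trac, the alpha constant segment, had 320 in CD73+ and 2804 in DN3 cells and was kept, and Trbc2, a beta constant segment, had no CD73+ peak and a DN3 peak of 1039. Of the gamma segments Trgc1 had 50.7 in CD73+ and 169 in DN3 cells without overlap, Trgc3 had 54.4 in CD73+ and 150 in DN3 cells without overlap, Trgc2 and Trgc4 had DN3 peaks alone (156 and 157), and the delta segment Trdc had no peak in either list.

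Proximal TCR signalling genes numbered 18, with 2 kept, 5 shifted and 7 lost. Prkcq, protein kinase C theta, kept a DN3 peak of 628 with a CD73+ peak of 102, and Ptprc, the CD45 phosphatase gene, kept one of 669 with 68.4, both over 100 kb from the gene. Lat had 4 DN3 peaks of up to 627 and no CD73+ peak. Lcp2, the SLP-76 adaptor (204), Fyn, a Src kinase (174), Zap70 (99.9), Cd5 (86.6) and Lck (86.4) were also lost. Of the 59 DN3 peaks at this list that were not called again, 19 overlapped a CD73+ HEB peak. With the CD73+ HEB list in place of E2A, 9 of the 18 were kept and 2 lost.

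Of 21 genes of the TCR signal response and its ERK feedback, 1 was kept, 4 shifted and 10 lost. Of the 15 with a DN3 peak 6.67% were kept and 66.7% lost, against 15.4% and 47.4% of all genes with a DN3 peak. Nr4a1, an orphan receptor gene induced by TCR signals, had a DN3 peak of 414 that all of the other 4 lists also held. Dusp2 (386), Dusp4 (346) and Dusp5 (141), phosphatase genes that limit MAP kinases, Egr2, a factor of the Egr family (153), and Irf4 (174) were lost as well. Dusp6 had 102 in CD73+ and 203 in DN3 cells at different sites. The kept gene was Spry2, a feedback inhibitor of ERK, through a pair of low peaks, 58.0 in CD73+ and 51.0 in DN3 cells. With the CD73+ HEB list in place of E2A, 8 of the 21 were kept and 5 lost.

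Neither Tcf3 nor Tcf12 had a kept site with the CD73+ E2A list. Tcf3, which encodes E2A, had 3 DN3 peaks (275, 137 and 56.9) and no CD73+ peak, and Tcf12 had 4 DN3 peaks of up to 130 and 2 CD73+ peaks of 64.7 and 61.0 at other places. Each of these 4 DN3 peaks overlapped a CD73+ HEB peak. Id3, whose product opposes E proteins in gamma-delta cells, had CD73+ peaks of 71.8 and 55.6 and DN3 peaks of 77.1 and 59.3, with no overlap, and both DN3 peaks overlapped a CD73+ HEB peak. Id2 was the nearest gene of 20 DN3 peaks, of which 2 were kept. Its highest DN3 peak, 3100 at 92620 bp from the gene on chromosome 12, held CD73+ peaks of 186 and 54.0, and the DN3 peak of 141 that lay 317 bp from the gene held one of 65.4. DN3 peaks of 1536 and 909, at 82297 and 170534 bp from Id2, were not called again in the CD73+ E2A list. Both overlapped a peak in each of the other 4 lists. Of the 10 genes in this list 1 was kept, 5 shifted and 2 lost, and with the CD73+ HEB list 5 were kept and 2 lost.

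In the Notch pathway 1 of 18 genes was kept, 4 were shifted, 5 lost and 1 new only, and with the CD73+ HEB list 7 were kept and 3 lost. Notch3, a receptor and Notch target of early thymocytes, was the kept one, with 78.2 in CD73+ and 2272 in DN3 cells. With both E2A lists at a score of at least 100 no gene of this list was kept and 6 were lost, Notch3 among them. Notch1 had a DN3 peak of 1714 at 9220 bp from the gene, with a peak in each of the other 4 lists, and its CD73+ peak of 65.3 lay elsewhere. The target Hes1 was shifted (96.9 in CD73+ and 184 in DN3 cells), and Notch2 (356), Heyl (228), the glycosyltransferase gene Lfng (205) and the target Nrarp (63.5) were lost.

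T lineage transcription factors had 22 genes, of which 6 were kept, 11 shifted and 3 lost, with 17 having any CD73+ peak. Tcf7, the gene of TCF-1, had 122 in CD73+ and 1170 in DN3 cells at a site 30192 bp from the gene, and its DN3 peaks of 401, 300 and 157 were not called again. Lef1, its relative, kept a DN3 peak of 868 with a CD73+ peak of 57.0, and Runx1 one of 829 with 53.2, both over 100 kb from the gene. Gata3 kept 1 of 9 DN3 peaks, 547 at 262496 bp from the gene, with CD73+ peaks of 58.0 and 54.1. Bcl11b, the T cell commitment factor, had 8 DN3 peaks of up to 243, and its 1 CD73+ peak of 59.6 lay elsewhere. Zbtb7b, the CD4 lineage factor gene (544), Klf2 (139) and Ikzf1 (105) were lost. Of the 113 DN3 peaks at these genes 9 were kept, and of all DN3 peaks 9.27%. With both E2A lists at a score of at least 100, 1 of the 22 genes was kept and 13 were lost. Counting every gene within 10 kb of a peak left 2 of the 22 kept and 12 lost. With the CD73+ HEB list in place of E2A 15 were kept and 4 lost.

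Genes of the gamma-delta programme numbered 22, with 5 kept, 3 shifted, 8 lost and 3 new only. Sox4, a factor of IL-17-making gamma-delta cells, had 273 in CD73+ and 1467 in DN3 cells, 5628 bp from the gene. Il23r, the IL-23 receptor, had 291 in CD73+ and 186 in DN3 cells, and both peaks were met in the other lists. Blk, a Src kinase gene, had 62.3 in CD73+ and 762 in DN3 cells, and Ifng kept a DN3 peak of 119 with a CD73+ peak of 63.0 while its DN3 peak of 469 was not called again. Nt5e, the gene of CD73 itself, had a kept site with 128 in CD73+ and 251 in DN3 cells, at 230739 bp from the gene. Etv5, an ERK-dependent factor (376), Cd27 (335), Il2rb (273), Cd44 (256), Zbtb16, the PLZF gene (142), and Sox13 (120) were lost. Il17a (91.6), Tbx21, the T-bet gene (64.7), and Ccr6 (62.0) had CD73+ peaks and no DN3 peak. With the CD73+ HEB list in place of E2A, 13 of the 22 were kept and 3 lost.

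**Figure D5:**
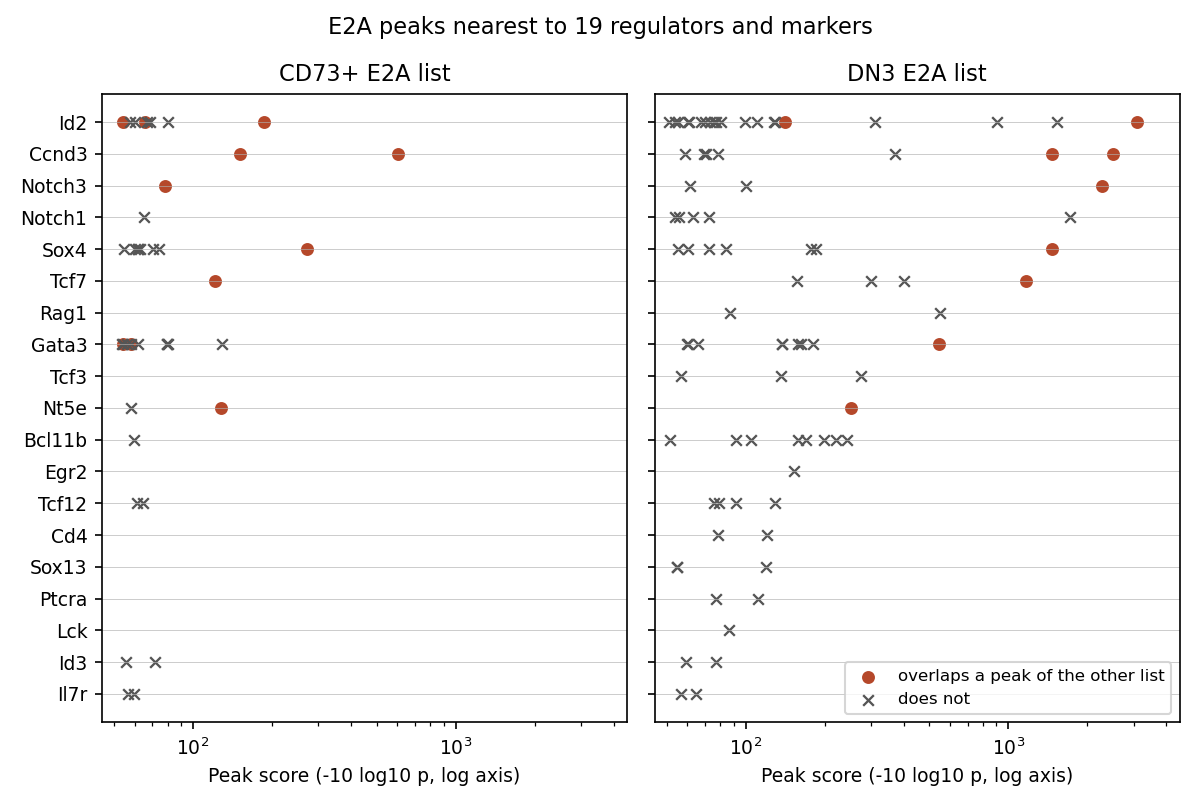
Scores of the E2A peaks (horizontal axes, -10 log10 p, log axis) nearest to 19 regulators and markers in CD73+ cells (left) and DN3 cells (right). Circles are peaks that overlap a peak of the other list and crosses are peaks that do not. Circles stand at Id2, Ccnd3, Notch3, Sox4, Tcf7, Gata3 and Nt5e, and 7 genes (Rag1, Tcf3, Egr2, Cd4, Sox13, Ptcra and Lck) have no CD73+ peak.

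Genes of the cell cycle had kept sites with high DN3 scores. Ccnd3, the cyclin used by pre-T cells, had 604 in CD73+ and 2499 in DN3 cells on chromosome 17 at 47541758 to 47542762, within the gene. E2f2, a transcription factor of S phase entry, had 248 in CD73+ and 2416 in DN3 cells, and Btg2 is given above. Of 26 G1 to S and antiproliferative genes 5 were kept, 6 shifted, 5 lost and 4 new only, and with the CD73+ HEB list 9 were kept and 4 lost. With both E2A lists at a score of at least 100, 4 of these 26 were kept and 9 lost. Ccne1, cyclin E1 (501), E2f4 (460) and E2f1 (224) were lost, and Cdc25a (99.2) and Cdkn2a (73.5) had new peaks only. Of 17 DNA replication and mitosis genes 3 had a CD73+ peak and 3 a DN3 peak, and 12 had none.

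In the survival and apoptosis list 3 of 14 genes were kept and 4 lost. Of these, 5 were kept and 2 lost with the CD73+ HEB list, and with both E2A lists at a score of at least 100 none was kept and 5 were lost. Bbc3, the pro-apoptotic gene of PUMA, had 61.4 in CD73+ and 1062 in DN3 cells, Bcl2l11, the gene of BIM, kept a DN3 peak of 874 with a CD73+ peak of 57.0, and the death receptor gene Fas kept one of 295 with 67.2. Bcl2l1, the gene of BCL-XL, had 7 DN3 peaks of up to 808, Bcl2 had 3 of up to 207 and Mcl1 had 1 of 206, with no CD73+ peak at any of them. Pmaip1, the gene of NOXA, was also lost (95.1).

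Among 27 cytokine receptor and JAK-STAT genes 5 were kept, 5 shifted, 7 lost and 3 new only, and with the CD73+ HEB list 11 were kept and 5 lost. Socs3, an inhibitor of cytokine signalling, had 380 in CD73+ and 2688 in DN3 cells, and Il6ra had 398 in CD73+ and 1126 in DN3 cells. Il21r kept a DN3 peak of 455 with a CD73+ peak of 54.3. Il7r had peaks of up to 59.5 in CD73+ and 64.6 in DN3 cells without overlap. Ifnar1 (335), Cish (228) and Il2ra were lost, and Socs2 (147) and Jak2 (95.2) were new only. Of 20 chemokine receptor and homing genes 5 were kept and 6 lost, and with the CD73+ HEB list 9 were kept and 4 lost. With both E2A lists at a score of at least 100, 1 of these 20 was kept and 7 were lost. Selplg, the gene of the selectin ligand PSGL-1, had 221 in CD73+ and 2287 in DN3 cells, Ccr9 had 68.5 in CD73+ and 1094 in DN3 cells, and Cxcr5 had 60.3 in CD73+ and 812 in DN3 cells. Cxcr4 had a DN3 peak of 703 not called again and CD73+ peaks of up to 76.7 elsewhere. Ccr7 (151), Itgal (108) and Itgae (95.9) were lost.

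Glycosyltransferase genes, whose products build the sugars of selectin ligands, Notch and receptors, were kept in 6 of 22 cases, shifted in 9 and lost in 4, and with the CD73+ HEB list 11 were kept and 7 lost. With both E2A lists at a score of at least 100, 2 of them were kept and 11 lost. B4galt1, a galactosyltransferase gene, had 1053 in CD73+ and 2824 in DN3 cells, 21348 bp from the gene. Mgat4a had 83.5 in CD73+ and 2104 in DN3 cells, Mgat3 had 57.3 and 1151 in the same order, and Galnt7 had 106 in CD73+ and 1050 in DN3 cells. Galnt2 had 11 DN3 peaks of up to 1508 and no CD73+ peak. In the unfolded protein response, with 2 of 15 genes kept and 4 lost, or 6 kept and 1 lost with the CD73+ HEB list, Edem3, which helps clear misfolded glycoproteins, had 193 in CD73+ and 3100 in DN3 cells. Xbp1 had a DN3 peak of 1913 and Ern1, the gene of the sensor that splices Xbp1 mRNA, one of 474, and Herpud1 had 824, all without a CD73+ peak.

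NFAT and NF-kB genes and NK effector genes were the 2 lists with no kept gene among 10 or more genes with a DN3 peak. They held 34 and 11 DN3 peaks, in the same order. Of all DN3 peaks 9.27% were kept, so few kept peaks would stand in lists this small at that share, and the difference was not tested. Of 17 NFAT and NF-kB genes 2 were shifted, 9 lost and 3 new only. Traf2, an adaptor of TNF receptors, had a DN3 peak of 1723 at 1901 bp from the gene, Nfatc2 had 8 peaks of up to 455, Nfkb1 4 of up to 189 and Tnfaip3, the A20 gene, 10 of up to 172, with no CD73+ peak. Nfatc3 (122), Rel (111) and Rela (62.5) had new peaks only. Of the 34 DN3 peaks of this list 12 overlapped a CD73+ HEB peak, and with that list in place of E2A 6 genes were kept and 3 lost. Counting every gene within 10 kb of a peak gave 0 kept, 2 shifted and 8 lost genes. Of 15 NK and innate lymphoid effector genes 2 were shifted and 8 lost. The lost ones had mostly 1 DN3 peak each, at Tyrobp, the DAP12 gene (266), Klrk1, the NKG2D gene (237), and Gzma, granzyme A (225), with a total of 11 DN3 peaks over the list. With the CD73+ HEB list 4 of these 15 genes were kept and 6 lost. None of the other lists was without kept genes apart from the erythroid and hepatocyte markers.

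Among costimulatory and TNF receptor genes Tnfrsf1a had 186 in CD73+ and 1904 in DN3 cells and was kept, while Cd27, Ctla4 (194) and Tnfrsf9 (191) were lost, with 2 kept, 4 shifted and 6 lost of 19. Of these, 10 were kept and 1 lost with the CD73+ HEB list. Of 14 tyrosine phosphatase genes 3 were kept, among them Ptprk with all of its 3 DN3 peaks (CD73+ scores of up to 261 and DN3 scores of up to 992), and 6 lost, led by Ptprj (460), and with the CD73+ HEB list 7 were kept and 4 lost. Chromatin genes had 3 kept, 3 shifted, 6 lost and 6 new only of 27, or 10 kept and 1 lost with the CD73+ HEB list. Chd7 had a DN3 peak of 1776 and Smarca4, the BRG1 gene, one of 900, neither called again, with CD73+ peaks of 86.4 and 69.2 elsewhere, and the coactivator genes Ep300 (142) and Crebbp (81.7) had new peaks only. Arid1b held the highest CD73+ peak of the list, 892, over a DN3 peak of 79.2. Of 12 genes of the coreceptors and the double-positive stage 4 were kept, among them Arpp21, or 6 with the CD73+ HEB list, and Cd4 (121), Cd8b1 (233) and Cd1d1 (600) were lost. With both E2A lists at a score of at least 100, 1 of these 12 was kept and 8 were lost.

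Markers of other cells show what the classes look like away from T cell genes. Hepatocyte markers had CD73+ peaks at 5 of 11 genes, Apob with 11 of the 15 peaks, and DN3 peaks at 0 of 11. Erythroid markers had CD73+ peaks at 3 and DN3 peaks at 2 of 11, stromal markers at 7 and 6 of 14, B cell markers at 3 and 5 of 12, and myeloid and progenitor markers at 8 and 13 of 19, in the same order. Itgam, the CD11b gene, had 141 in CD73+ and 1184 in DN3 cells. The neuronal synapse and channel genes, which have a median span of 502491 bp, held 210 CD73+ peaks and 29 DN3 peaks over 20 genes, of which 7 DN3 peaks were kept. By class 5 of these 20 genes were kept, 8 shifted and 0 lost. Of those with a DN3 peak 38.5% were kept, against 30% of T lineage transcription factors with a DN3 peak. With both E2A lists at a score of at least 100, 3 of the neuronal genes were kept and 3 lost. The part of gene length, list size and low-scoring peaks in these counts was not tested.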

How the data were processed

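Peak lists from E2A and HEB immunoprecipitation of CD73+, CD73- and DN3 cells, 1 of each per group, were used as deposited, and those of CD73+ and DN3 E2A were compared. Bowtie, HOMER and MACS 1.4.2 and the build mm10 are named in the submitters' processing notes. The deposited score is the authors' -10 log10 p of MACS, and it was not changed. Duplicates were concatenated into 1 file, per the labels' protocols, so there is 1 list per group. Read depth is not given in the sources used here, and intervals on shares (95% Wilson) cover counting error only. BED starts were shifted by 1 to give positions counted from 1.

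Peaks on chromosomes 1 to 19, X and Y that shared 1 bp were counted as overlapping. Genes and promoters came from RefSeq tables of GRCm38.p6, with 21887 protein-coding genes and 32851 promoter windows. Of 446 symbols in 26 lists, 438 matched a gene. The comparison, its members, the lists and the genes to be named were chosen with earlier results of these data known. Named genes are the 10 highest peaks of each class, up to 4 genes per list and class by score, the 4 highest peaks over promoters per class, 20 genes whatever their values, and the edges of the overlap rule. Others named were chosen after their values were seen, and some that the rule takes are not reported here. The overlap and assignment steps were tested on simulated data. The 15 alternatives included score limits, equal list lengths, other overlap and gene rules, and the CD73+ HEB list in place of E2A. The software was scipy 1.17.1, pandas 2.3.3, numpy 2.4.6 and matplotlib 3.10.9 under Python 3.11.15.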

Additional observations from a re-analysis of the deposited data

Results flagged for a closer look

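Peaks were also called on sequences other than the main chromosomes, which the comparison does not use. The CD73+ E2A list held 145 such peaks and the DN3 E2A list 68, of which 71 and 40 overlapped a peak of the other list, with top scores of 2450 and 2226. No control peak list was used here, so no background level can be set beside them.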

How the results depend on the processing

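No paired analysis was possible because each group has 1 pooled list with no replicate numbers. Depth is unknown, peaks near the minimum score carry little evidence, and 1 list per group leaves every difference without a replicate check. The main values were 9.27% of DN3 peaks kept, 94.2% of CD73+ peaks new, and 958 kept, 2319 shifted, 2950 lost and 3960 new only genes. With both lists at a score of at least 100 they were 7.80% kept and 74.2% new, with 367 kept, 236 shifted and 739 new only genes. With the DN3 list alone at that score, 15.2% were kept and 96.1% new, with 1016 shifted and 1447 lost genes. Equal list lengths gave 7.19% and 91.8%. The top 1000 peaks of each list gave 17.1% and 81.5%, with 161 kept, 47 shifted, 647 lost and 657 new only genes. Overlap over 50% of both peaks, which the narrower CD73+ peaks limit by construction, gave 0.696% and 99.6%, with 82 kept genes. Midpoints within 200 bp gave 7.51% and 95.9%, and peaks within 500 bp gave 10.8% and 93.3%. Leaving out peaks wider than 3000 bp gave 94.7% new. The CD73+ list labelled HEB gave 27.9% kept and 60.8% new, with 2390 kept, 1095 shifted and 1927 new only genes. Leaving out peaks over 100 kb from a gene, added after the data were seen, gave 8.25% and 93.0%. Counting every gene within 10 kb of a peak gave 1383 shifted genes. The cause of these changes was otherwise not tested. The CANNTG shares stayed within their intervals when 150 bases of the window had to be covered. At new peaks, with 9 such windows left, CAGCTG stood in 44.4% and CAGGTG or CACCTG in 0 of them (interval up to 29.9%). Of 728 counts of list members 200 moved by over 1.5 times, among them 35 of 52 with the HEB list and 0 of 52 with all sequences in the files, and of 76 classes of single genes 28 changed.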

Other observations

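Olfactory receptor genes were nearest to 410 CD73+ peaks and 61 DN3 peaks, and 391 of the CD73+ peaks were new, 1.79% of that class (1.62% to 1.97%). They took 16 of the kept DN3 peaks (interval of the share 0.862% to 2.26%) and 0.401% of those not called again, and number 1110 of the 21887 protein-coding genes. Vomeronasal receptor genes, which sense pheromones, were nearest to 315 CD73+ peaks, 300 of them new, and 66 DN3 peaks, with shares of 1.37% of new, 0.786% of kept and 0.508% of not called again peaks. Cadherin and protocadherin genes took 511 new peaks (2.34%), 0.873% of kept and 0.455% of not called again peaks. Chemokine and chemokine receptor genes took 26 (0.119%), against 0.262% of kept and 0.294% of not called again peaks. The genes with the most new peaks were Lrrc4c with 67, Gas8 with 58 and Pcdh7 with 51.

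The X chromosome held 8.87% of the CD73+ E2A peaks and 2.49% of the DN3 E2A peaks. Its share was 7.62% in the CD73- E2A list, 5.49% in the CD73+ HEB list and 3.09% in the DN3 HEB list. Of the DN3 peaks on X 47 were kept and 261 were not called again, and of those on Y 23 were kept and 30 were not.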
